A study of Mus musculus with 18 samples.

Results

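Regulators of G protein signaling (RGS) were followed in the irradiated mouse heart through 10 genes, Rgs1, Rgs2, Rgs3, Rgs4, Rgs6, Rgs10, Rgs12, Rgs14, Rgs16 and Rgs19. They are 10 of the 21 genes in the table that are named Rgs and a number, and 10 of 30072 genes in all. The family was chosen by the measured level of Rgs16, which rose between the 2 and 6 week groups post-IR, so the values of Rgs16, and of every member between 2 and 6 weeks, are given as a description without a test. RNA was sequenced from the cardiac septum of 18 CD-1 mice, male and female littermates aged at least 8 weeks. One of the 3 groups of 6 mice was left unirradiated (control), and the others received 25 Gy of ionizing radiation in a single dose and were sampled 2 or 6 weeks later. All groups, controls included, had isoflurane anesthesia and computed tomography imaging by the study's methods. The labels give no sampling time for the controls, so whether they match either irradiated group in time since treatment is not known. Both irradiated groups were compared with the same 6 controls, so both comparisons share mice. Each library is the bulk RNA of 1 mouse, in which a change in the number of cells of one type and a change in RNA per cell cannot be told apart.

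RGS proteins shorten the signal of receptors coupled to heterotrimeric G proteins. They bind the active alpha subunit through a conserved RGS domain and speed up its hydrolysis of GTP, which lets the subunit fall back to its inactive state with the beta and gamma subunits. The R4 subfamily (Rgs1, Rgs2, Rgs3, Rgs4 and Rgs16 here) consists mostly of small proteins acting on Gi and Gq subunits, the R7 subfamily (Rgs6) works as a complex with the beta subunit Gnb5, the R12 subfamily (Rgs10, Rgs12 and Rgs14) acts on Gi subunits, and Rgs19 belongs to the RZ subfamily. In the heart, Rgs6 with Gnb5 is known for limiting the parasympathetic slowing of the pacemaker through the channel formed by Kcnj3 and Kcnj5, and Rgs2 and Rgs4 for restraining Gq and Gi signals.

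Promoter sequences are shown for Rgs16, which chose the family, for Rgs10 and Rgs12, which passed the test as higher both times, and for Rgs6, the member that was lower. Each holds the 250 bases before the transcription start in the RefSeq annotation of GRCm38.p6, read on the strand of the gene, and for Rgs12 it is the first of its windows. The windows of Rgs6 and Rgs10 lie inside the genes as GENCODE annotates them. Those genes start at chr12:82588292 (plus strand) and chr7:128418758 (minus strand). Capitals mark GGGCGG (the GC box bound by Sp factors) on either strand, and no other searched motif lay in these 4 windows.
Rgs16 promoter, chr1:153740103-153740352 (plus strand): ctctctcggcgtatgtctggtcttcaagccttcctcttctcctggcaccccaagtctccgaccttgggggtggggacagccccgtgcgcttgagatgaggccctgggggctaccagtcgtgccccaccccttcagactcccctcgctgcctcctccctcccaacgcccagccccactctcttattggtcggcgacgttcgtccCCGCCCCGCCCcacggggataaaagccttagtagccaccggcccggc
Rgs10 promoter, chr7:128418173-128418422 (minus strand): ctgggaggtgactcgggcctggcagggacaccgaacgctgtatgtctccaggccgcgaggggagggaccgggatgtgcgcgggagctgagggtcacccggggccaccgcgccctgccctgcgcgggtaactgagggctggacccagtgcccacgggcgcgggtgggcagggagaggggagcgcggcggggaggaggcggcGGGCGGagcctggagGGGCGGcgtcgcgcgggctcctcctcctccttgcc
Rgs12 promoter, chr5:34949198-34949447 (plus strand): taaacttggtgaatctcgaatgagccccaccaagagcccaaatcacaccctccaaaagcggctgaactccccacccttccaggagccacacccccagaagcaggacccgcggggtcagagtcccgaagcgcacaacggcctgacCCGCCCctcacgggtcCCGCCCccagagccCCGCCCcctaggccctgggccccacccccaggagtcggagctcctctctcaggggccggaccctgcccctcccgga
Rgs6 promoter, chr12:82617249-82617498 (plus strand): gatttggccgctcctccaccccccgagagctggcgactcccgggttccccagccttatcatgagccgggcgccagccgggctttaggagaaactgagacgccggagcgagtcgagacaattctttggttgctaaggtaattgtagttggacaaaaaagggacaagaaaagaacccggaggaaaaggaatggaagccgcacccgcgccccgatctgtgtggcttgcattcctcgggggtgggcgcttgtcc

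Windows of this kind were found for 8 of the 10 members, 12 windows in all, and Rgs1 and Rgs14 had none in the table used. In Rgs16 the matched letters on the opposite strand began 47 and 42 bases before the start and overlapped by 1 base. The Rgs10 window had a GC content of 76.4% and 2 matches, and the Rgs6 window had 59.2% and none. At least 1 GC box was found in 8 of the 12 windows, for 6 members, beside 32.7% of all 32851 promoter windows of the same length, and the median GC content of all windows was 52.4%. For Rgs19, 2 of these windows overlapped and shared 1 GC box, which was counted in both. TATAAA was found in 3 of the 12 windows (12.4% of all windows), both of Rgs3 and, 31 bases before the start, in Rgs4. TGACG, the core of the cAMP response element, was found in 3 of the 12 windows, those of Rgs2, Rgs4 and Rgs12 in its second window (17.8% of all windows). No member window held the full element TGACGTCA (1.55%), the E-box CACGTG (6.02%), the STAT motif TTCNNNGAA (7.02%), the core of the interferon-stimulated response element (2.98%) or the p53 half-site (7.13%). All motifs were searched on both strands, a match is a description of letters, and a missing match says only that the letters are not in these windows.

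Several RGS genes are neighbors on mouse chromosome 1 of GRCm38. Rgs2, Rgs13, Rgs1, Rgs21 and Rgs18 follow each other with no other protein-coding gene between them, and Rgs2 lies at chr1:143999338-144004161 on the minus strand. Rgs8 and Rgs16 are 40026 bases apart, with Rgs16 at chr1:153740349-153745468 on the plus strand, and Rgs5 and Rgs4 are 45664 bases apart, with Rgs4 at chr1:169741477-169747642 on the minus strand. Levels were far apart in some neighbors and close in others. Rgs8 had at most 4 counts in any mouse beside Rgs16, Rgs5 averaged 258 ± 26.5 CPM (SD, n = 6) in controls beside 14.3 ± 1.37 CPM for Rgs4, and Rgs13 and Rgs21 had at most 4 and 3 counts beside Rgs2. Rgs13, Rgs1, Rgs21 and Rgs18, adjacent to each other, all had low control means of 0.108, 0.487, 0.0975 and 0.198 CPM. The members on other chromosomes lie apart from each other, Rgs10 at chr7:128373621-128418758 (minus strand), Rgs12 at chr5:34949445-35039644 (plus), Rgs14 at chr13:55369732-55384687 (plus), Rgs6 at chr12:82588292-83162056 (plus), Rgs3 at chr4:62559847-62704001 (plus) and Rgs19 at chr2:181688419-181693977 (minus). All are annotated as protein-coding, and Rgs16 has 5 exon blocks with 2339 exonic bases.

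The estimated counts summed to between 11522987 and 15501019 per mouse, so that a count of 3, taken here as the floor of detection, equals 0.194 to 0.260 CPM before scaling between mice. Levels are given as CPM, counts relative to library size, scaled with TMM factors (trimmed mean of M values), which ran from 0.844 to 0.991 in controls, 0.962 to 1.03 at 2 weeks and 1.04 to 1.13 at 6 weeks. Mitochondrial transcripts took 19.8 to 25.0% of counts in controls and 16.5 to 20.05% at 6 weeks. Of 7 cardiomyocyte markers (Myh6, Tnnt2 and others), all 7 passed the test as lower at 6 weeks. The ranges of their sums overlapped between controls and 6 weeks in CPM (32643 to 49098 and 26886 to 35193). They overlapped in TPM as well (24328 to 35284 in controls and 27818 to 30434 at 6 weeks). Control mouse 4 stood apart, with the lowest cardiomyocyte and the highest atrial, fibroblast and macrophage marker sums among controls. In each group 3 of 6 mice had Y-linked expression, and the labels do not give the sex of each mouse. Isl1 and Ly6g, defining markers of pacemaker cells and neutrophils, had at most 3 counts in every mouse.

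All 10 members passed the filter on low values, although Rgs1 and Rgs14 did so with few counts. To order them, the TPM was used, a level of transcripts per length within each mouse. In controls Rgs3, a widely expressed R4 member, had the highest level at 20.2 ± 3.21 TPM (SD, n = 6), and its range did not overlap that of any other member. Rgs2 (8.82 ± 2.52 TPM), Rgs12 (8.30 ± 1.34), Rgs4 (5.73 ± 0.835), Rgs19 (4.17 ± 1.22), Rgs10 (3.44 ± 1.30) and Rgs6 (3.15 ± 1.16) followed, and each neighbor in this order overlapped the next across mice. Rgs16 came eighth at 0.552 ± 0.169 TPM, below every mouse's value for Rgs6, and overlapped Rgs14 at 0.297 ± 0.1002 TPM, which in turn overlapped Rgs1 at 0.148 ± 0.166 TPM.

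At 6 weeks the order had Rgs3 (26.5 ± 3.95 TPM) and Rgs12 (19.7 ± 3.78 TPM) first, now with overlapping ranges. Rgs16 stood sixth at 9.54 ± 3.06 TPM, between Rgs10 at 11.4 ± 2.68 TPM and Rgs4 at 8.75 ± 0.949 TPM, and overlapped both. As a share of the summed TPM of the 10 members, Rgs16 made up 0.560 to 1.27% in controls (median 1.04%), 1.66 to 4.37% at 2 weeks (median 2.35%) and 7.20 to 11.2% at 6 weeks (median 8.74%). TPM values are not scaled between mice for composition: on the log2(TPM + 1) scale the median of all genes tested was 0.29 higher at 6 weeks than in controls.

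**Figure D1:**
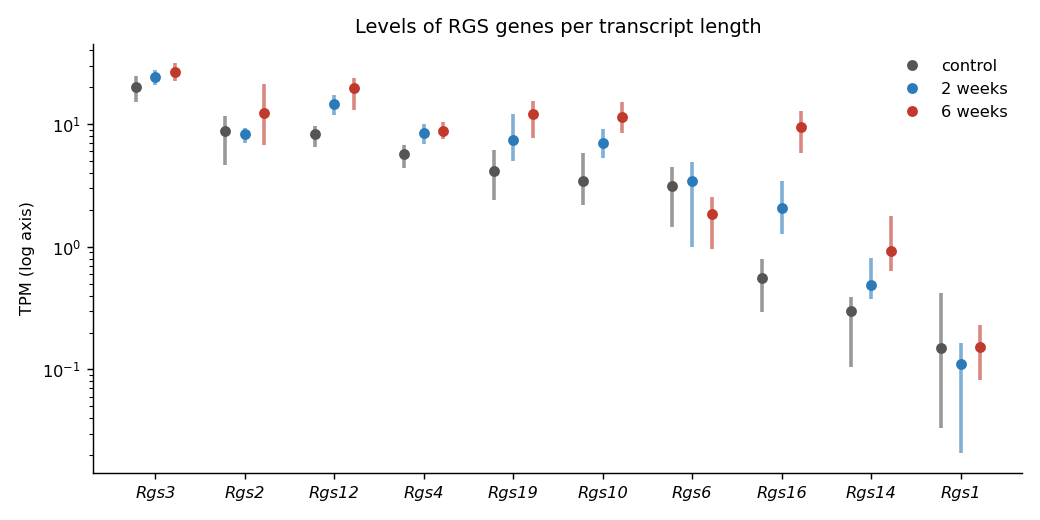
Mean TPM (points) and the range over 6 mice (lines) of the 10 RGS genes on a log axis, in control (grey), 2 week (blue) and 6 week (red) groups, ordered by the control mean. Rgs16 moved from a control mean of 0.552 TPM, eighth of 10, to 9.54 TPM, sixth of 10, at 6 weeks, while Rgs3 stayed first.

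Rgs16, a small R4 protein acting on Gi and Gq subunits, had the largest rise of the 10 genes. Its level ran from 0.740 to 1.69 CPM in controls (median 1.42 CPM, 8 to 26 counts), from 2.55 to 6.75 CPM at 2 weeks (median 3.71 CPM, 39 to 92 counts) and from 11.6 to 23.1 CPM at 6 weeks (median 17.0 CPM, 157 to 388 counts). All 6 mice at 2 weeks lay above all controls, and all 6 mice at 6 weeks lay above all mice at 2 weeks. The group means were 1.34 ± 0.370, 4.28 ± 1.53 and 17.5 ± 4.89 CPM (SD, n = 6), which gave log2 fold changes of 1.65 (SE 0.288) at 2 weeks, 3.69 (SE 0.257) at 6 weeks and 2.04 (SE 0.216) from 2 to 6 weeks. Since this rise chose the gene, no test was made. The last step corresponds to 4.12-fold, and under the alternatives run its log2 value stayed between 1.76 and 2.22.

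**Figure D2:**
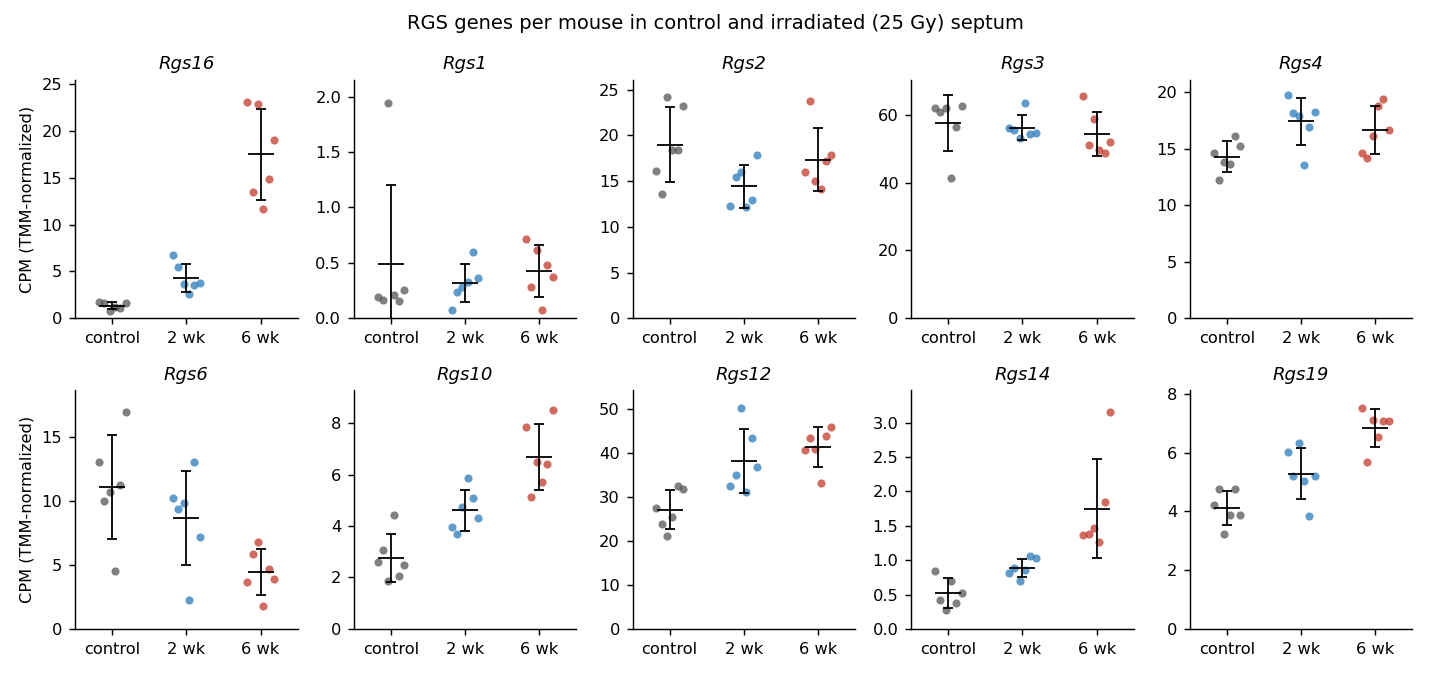
TMM-normalized CPM of each RGS gene in each mouse (points), with the mean and SD (black bars) of 6 mice per group; each panel has its own axis from 0, which cuts the lower SD bar of Rgs1 in controls. Rgs16 separated all 3 groups, Rgs10, Rgs12, Rgs14 and Rgs19 separated 6 weeks from control, and Rgs6 was lower at 6 weeks with overlapping groups.

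The genes whose pattern over the 18 mice was most like that of Rgs16 were Lxn, Mcam, Angpt2, Nes and Rhoc. Likeness was the root mean square difference of log2 CPM after standardizing each gene over the mice, among 12868 genes with a mean of at least 1 CPM, where 0 is an identical pattern. It was 0.191 for Lxn (a carboxypeptidase inhibitor), 0.205 for Mcam (a cell adhesion molecule of endothelial cells and pericytes), 0.234 for Angpt2 (the Tie2 ligand angiopoietin 2), 0.247 for Nes (the intermediate filament nestin) and 0.257 for Rhoc (a small GTPase), against a median of 1.41 over all genes. The control, 2 week and 6 week means of Angpt2 were 3.58 ± 0.578, 6.98 ± 1.498 and 15.96 ± 3.41 CPM (SD, n = 6). Those of Mcam were 32.4 ± 2.29, 52.5 ± 6.24 and 93.8 ± 14.05 CPM. All 5 genes had non-overlapping groups between 2 and 6 weeks, which follows from choosing them by likeness to Rgs16. Summed endothelial markers were 199 to 289 TPM in controls and 313 to 443 TPM at 6 weeks, but overlapped in CPM (842 to 1021 and 995 to 1265), with 2 of 7 markers passing the test as higher and 3 as lower. Macrophage sums were 41.8 to 119 TPM in controls and 143 to 237 TPM at 6 weeks and also overlapped in CPM (105 to 264 and 246 to 348), with 6 of 7 markers passing as higher. The part of either in the level of Rgs16 was not tested.

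For the 9 other members, the comparisons with control asked which RGS genes differed from control 2 or 6 weeks after irradiation. These members were chosen with earlier results of these data known. Their shares are therefore a description beside those of all genes, not independent support. At 2 weeks 2 of the 9 passed edgeR's quasi-likelihood test at an adjusted P under 0.05, both higher, where 5.02% of 15054 genes passed (3.09% as higher and 1.93% as lower). At 6 weeks 5 of the 9 passed, 4 higher and 1 lower, where 25.0% of all genes passed (13.5% as higher and 11.5% as lower). The split was 5 higher and 1 lower with library size alone and 6 higher and 0 lower in TPM on either pseudocount. The median log2 fold change of the 9 was 0.28 at 2 weeks and 0.21 at 6 weeks, beside -0.0015 and -0.02 over all genes tested, and with limma voom the 6 week median was 0.47. No member's groups were separate at 2 weeks, where those of 3.24% of all genes were (1.96% higher and 1.28% lower). The groups of 4 members were separate at 6 weeks, all higher, beside 9.23% of all genes (5.80% higher and 3.43% lower). With an absolute log2 fold change above 1 as a further threshold, 0 and 3 of the 9 remained (0.903% and 5.95% of all genes). At 2 weeks 6 of the 9 had an unadjusted P under 0.05 (Rgs2 as lower), 2 passed after adjustment by edgeR, DESeq2 and limma voom alike, and none of these exceeded that size. No share of all genes stands beside the unadjusted, DESeq2, limma voom, library size and TPM counts, here, for the lists below or in the closing sections. No excess is therefore read from them.

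**Figure D3:**
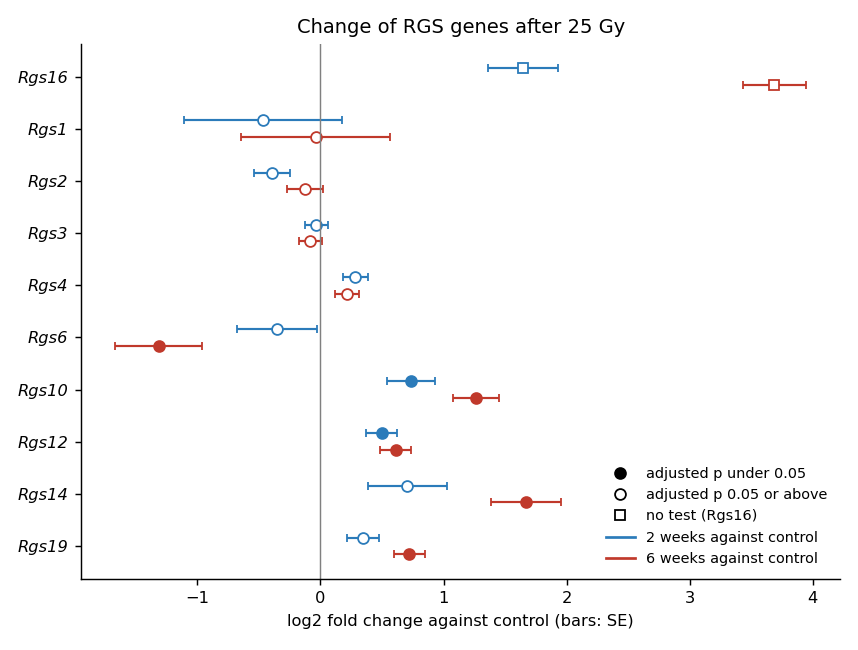
Log2 fold change against the 6 control mice at 2 weeks (blue) and 6 weeks (red) for each RGS gene, with bars of 1 SE; filled circles passed edgeR's quasi-likelihood test at an adjusted P under 0.05, open circles did not, and squares (Rgs16) were not tested. Rgs10 and Rgs12 were filled at both times, Rgs14 and Rgs19 at 6 weeks on the higher side, and Rgs6 at 6 weeks on the lower side.

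All 3 members of the R12 subfamily were higher at 6 weeks. Rgs10, abundant in macrophages and lymphocytes and a regulator of Gi signals, had 1.85 to 4.44 CPM in controls (median 2.55), 3.69 to 5.88 at 2 weeks (median 4.53) and 5.13 to 8.5005 at 6 weeks (median 6.47). The 2 week mice overlapped the controls only through control mouse 4, and the 6 week mice all lay above the controls. Against control it was higher by 0.73 on the log2 scale (SE 0.196, adjusted P = 0.0365, edgeR) at 2 weeks and 1.26 (SE 0.189, adjusted P = 0.000104, edgeR) at 6 weeks. The call at 2 weeks was lost on leaving out any one of 8 mice (controls 1, 3, 5 and 6 and 2 week mice 3, 4, 5 and 6), with adjusted P from 0.0572 to 0.0832, and under a replicate block (adjusted P = 0.0570). From 2 to 6 weeks the value was 0.53 (SE 0.175), with overlapping groups.

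Rgs12, a large scaffold with an RGS domain, Ras-binding domains and a GoLoco motif, had 21.2 to 32.4 CPM in controls (median 26.4), 31.1 to 50.1 at 2 weeks (median 35.8) and 33.1 to 46.0 at 6 weeks (median 42.1). Controls and 2 week mice overlapped, while every 6 week mouse lay above every control. The log2 fold change was 0.50 (SE 0.124, adjusted P = 0.0266, edgeR) at 2 weeks and 0.61 (SE 0.124, adjusted P = 0.00135, edgeR) at 6 weeks, a 1.41-fold and 1.53-fold difference. At 2 weeks the call was lost without control 2 or 3 or 2 week mouse 3 or 5 (adjusted P from 0.0538 to 0.0631). From 2 to 6 weeks the log2 value was 0.11 (SE 0.122), with overlapping groups.

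Rgs14, also a GoLoco scaffold and a low-count gene here, had 0.278 to 0.846 CPM in controls (3 to 13 counts, median 0.467 CPM), 0.695 to 1.06 CPM at 2 weeks (10 to 16 counts, median 0.866 CPM) and 1.26 to 3.16 CPM at 6 weeks (17 to 42 counts, median 1.43 CPM). The 6 week mice lay above all controls and all 2 week mice, and 6 week mouse 6 was the highest. Against control the log2 fold change was 0.71 (SE 0.323, adjusted P = 0.223, edgeR) at 2 weeks and 1.67 (SE 0.286, adjusted P = 0.000350, edgeR) at 6 weeks. Its step from 2 to 6 weeks was 0.96 (SE 0.253) on the log2 scale. Besides Rgs16 it was the only member whose 2 and 6 week groups did not overlap, and such groups were found for 3.54% of all genes (2.27% higher and 1.27% lower), a count from which nothing is read because this contrast chose the family.

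Rgs19 of the RZ subfamily, which binds Gi subunits and the adaptor Gipc1, had 3.24 to 4.76 CPM in controls (median 4.06), 3.84 to 6.33 at 2 weeks (median 5.21) and 5.69 to 7.52 at 6 weeks (median 7.07). The 6 week mice were separate from controls and overlapped the 2 week mice. The log2 fold change was 0.35 (SE 0.129, adjusted P = 0.129, edgeR) at 2 weeks and 0.72 (SE 0.126, adjusted P = 0.000393, edgeR) at 6 weeks. With library size alone as the scaling, the 2 week value of 0.50 passed (adjusted P = 0.0265).

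Markers of macrophages, T and NK cells and B cells included higher genes at 6 weeks, when Rgs10, Rgs12, Rgs14 and Rgs19 were higher too. At 2 weeks 1 of 7 macrophage markers passed as higher, with 0 of 5 for T and NK cells and 0 of 3 for B cells. Rgs10 and Rgs12 passed at 2 weeks, and Rgs14 and Rgs19 did not. At 6 weeks 6 of 7 macrophage markers, 3 of 5 tested markers of T and NK cells and 2 of 3 tested B cell markers passed as higher. Markers of other blood-derived cells differed. Of those tested, 1 of 2 neutrophil markers passed as higher, 0 of 4 platelet markers passed, and 1 of 3 erythroid markers passed as lower. The summed level of T and NK cell markers ran from 0.420 to 2.01 TPM in controls, 0.812 to 3.53 TPM at 2 weeks and 3.22 to 8.09 TPM at 6 weeks, and that of B cell markers from 0.381 to 2.10, 0.294 to 2.31 and 1.12 to 2.91 TPM. Within groups, control mouse 4 had the highest macrophage sum (119 TPM) and the highest Rgs10 (4.44 CPM) of the controls, and 6 week mouse 6 the highest macrophage sum (237 TPM) and the highest Rgs10 and Rgs14 of its group. At 2 weeks the highest macrophage sum (124 TPM) was in mouse 5 and the highest Rgs10 (5.88 CPM) in mouse 4, and Rgs19 ranked only 4 of 6 in both control mouse 4 and 6 week mouse 6. Without control mouse 4 the 6 week log2 fold change of Rgs10 was 1.46 (adjusted P = 1.27e-05, edgeR). The part of these cells in the RGS values was not tested.

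**Figure D4:**
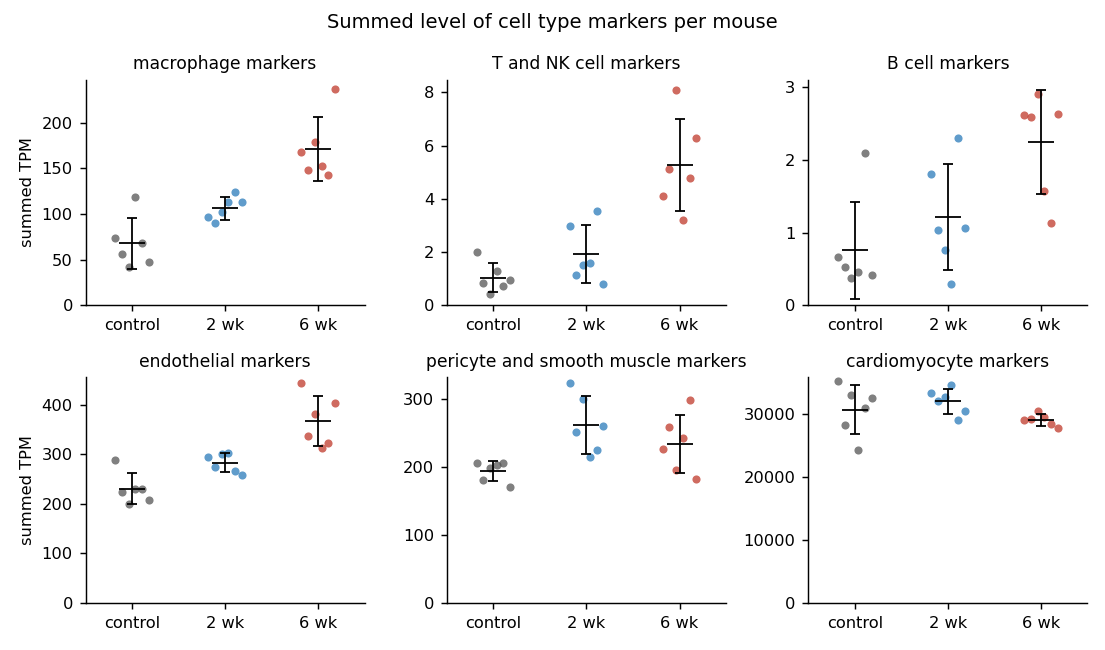
Summed TPM of fixed marker genes of 6 cell types in each mouse (points), with the mean and SD of 6 mice per group, axes from 0. Macrophage and T and NK cell sums were higher at 6 weeks than in every control (143 to 237 against 41.8 to 119 TPM for macrophages, a separation that the same sum in CPM did not show), while cardiomyocyte sums overlapped between groups.

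Rgs6, the R7 member that acts with Gnb5 on the muscarinic Gi pathway, was the single member that fell. Its level was 4.51 to 17.0 CPM in controls (median 10.997), 2.29 to 13.1 CPM at 2 weeks (median 9.63) and 1.78 to 6.81 CPM at 6 weeks (median 4.29). The groups overlapped at both times, at 6 weeks only through control mouse 4. The log2 fold change was -0.35 (SE 0.328, adjusted P = 0.588, edgeR) at 2 weeks and -1.32 (SE 0.350, adjusted P = 0.00951, edgeR) at 6 weeks, and without control mouse 4 it was -1.48 at 6 weeks (adjusted P = 0.00260, edgeR). In deposited TPM the 6 week difference kept its direction but lost the call (adjusted P = 0.0814 with a pseudocount of 1 and 0.0912 with 0.1, limma). Replicate 4 was the lowest mouse in every group, although replicate numbers share nothing but a name in the labels. Rgs6 had the widest spread of the members with over 20 counts in every mouse, with a coefficient of variation of 36.8% in controls and 42.1% at 2 weeks. Cardiomyocyte markers were lower in the same comparison (7 of 7, median log2 fold change -0.46, 1 of 7 passing at 2 weeks), and their part in the level of Rgs6 was not tested.

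The other R4 members did not pass the test at either time. Rgs2, an inhibitor of Gq signals, had 13.6 to 24.2 CPM in controls, 12.2 to 17.8 at 2 weeks and 14.2 to 23.8 at 6 weeks, all overlapping, with log2 values of -0.39 (SE 0.149, adjusted P = 0.137, edgeR) and -0.13 (SE 0.148, adjusted P = 0.586), the last turning to 0.14 with library size alone and 0.41 in log2(TPM + 1). Rgs4, known for restraining Gi and Gq signals in cardiac cells, had 12.2 to 16.2, 13.6 to 19.7 and 14.2 to 19.4 CPM, with log2 values of 0.28 (SE 0.0997, adjusted P = 0.109, edgeR) and 0.21 (adjusted P = 0.129). With library size alone Rgs4 passed at both times (log2 0.43, adjusted P = 0.00936, and 0.47, adjusted P = 0.00101), and it passed at 2 weeks without 2 week mouse 4 (adjusted P = 0.0400).

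Rgs3, the most abundant member, had medians of 61.4, 55.1 and 51.6 CPM in the control, 2 week and 6 week groups. Its ranges overlapped, and its log2 values were -0.03 (SE 0.0950, adjusted P = 0.885, edgeR) and -0.08 (SE 0.0951, adjusted P = 0.582). The sign of the 6 week value depended on the scaling, since it was 0.19 with library size alone and 0.37 in log2(TPM + 1), where it passed (adjusted P = 0.00922, limma). Rgs1, a regulator found in lymphocytes, had at most 21 counts: 0.151 to 1.94 CPM in controls, 0.0734 to 0.597 at 2 weeks and 0.0741 to 0.716 at 6 weeks. Control mouse 3 alone held those 21 counts, and without it the 6 week log2 value went from -0.04 to 1.11. At this depth no change of Rgs1 was detectable.

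The genes nearest in pattern to Rgs2 and Rgs4 were less close than those of Rgs16. For Rgs2 they were Ttc12 (0.663), Dnaja2 (0.694, a cochaperone) and Calr3 (0.720), and for Rgs4 they were Eif4g3 (0.473, a translation initiation factor), Zxda (0.610) and Tubgcp3 (0.623, a gamma-tubulin complex protein), against a median of 1.38 for each. Groups overlapped between 2 and 6 weeks in all 6 genes. In the order control, 2 weeks and 6 weeks, Dnaja2 had means of 117 ± 28.6, 87.7 ± 9.47 and 110 ± 20.4 CPM, Zxda had 4.39 ± 1.61, 6.98 ± 2.49 and 6.06 ± 1.74 CPM, and Eif4g3 had 90.3 ± 7.83, 106 ± 8.70 and 103 ± 6.99 CPM (SD, n = 6 each).

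The 11 other RGS genes in the table served as the nearest comparison. Rgs5, a pericyte gene, was by far the most abundant, with 258 ± 26.5, 247 ± 49.0 and 265 ± 28.4 CPM (SD, n = 6) in the control, 2 week and 6 week groups. Its log2 values of -0.06 (SE 0.111) and 0.04 (SE 0.111) did not pass (adjusted P = 0.805 and 0.828, edgeR). With library size alone the 2 week value turned to 0.086, and the 6 week value was 0.31 and passed (adjusted P = 0.0311). Of the 6 that passed the filter, 0 changed at 2 weeks (2 with an unadjusted P under 0.05, 0 by DESeq2 and 0 by limma voom). At 6 weeks 3 passed, Rgs9 higher (0.254 CPM in controls and 0.957 CPM at 6 weeks, on 1 to 25 counts a mouse, log2 1.89, SE 0.379, adjusted P = 0.00116, edgeR), Rgs18 higher (log2 1.47, SE 0.488, adjusted P = 0.0320) and Rgs17 lower (log2 -1.13, SE 0.385, adjusted P = 0.0387). Rgs9 is an R7 protein, Rgs18 is found in platelets and other blood cells, and Rgs17 is an RZ protein. Leaving out one mouse ended the call of Rgs17 for 7 mice (controls 1, 2 and 6 and 6 week mice 1, 3, 4 and 6, adjusted P up to 0.0943) and of Rgs18 for 5 mice (controls 1, 5 and 6 and 6 week mice 4 and 6, adjusted P up to 0.0755). Rgs17 also lost its call with library size alone (adjusted P = 0.0815, edgeR), without the count filter (0.05004) and under a replicate block (0.0539). In TPM its adjusted P was 0.119 and 0.0971 (limma). Rgs18 lost its call without the count filter (adjusted P = 0.0528, edgeR) and with limma voom (0.0827). Rgs18 had 1 to 4 counts in each control. It passed the filter only through the 6 week mice, where it was higher, so its call supports no change. Rgs18 is still counted among the 3 that passed here and in the list totals below. Rgs8, Rgs13, Rgs20, Rgs21 and Rgs22 fell below the filter.

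Genes of the pathway around the RGS proteins came from fixed lists of 95 genes, the 11 RGS genes included, of which 87 were tested. The lists, too, were chosen with earlier results of these data known. At 2 weeks 5 of the 87 passed, all higher, close to the 5.02% of all genes. At 6 weeks 33 passed, 23 higher and 10 lower, beside 25.0% of all genes. The 33 and the 23 include Rgs18, whose call supports no change. The median log2 fold change of the 87 was 0.04 at both times. The split at 6 weeks depended on scaling, with 40 higher and 2 lower by library size alone and 50 higher and 0 lower in TPM, so a direction of the lower genes below is relative to the TMM scale. No share of all genes stands beside these splits, and the median of all genes was also above 0 under these scalings.

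**Figure D5:**
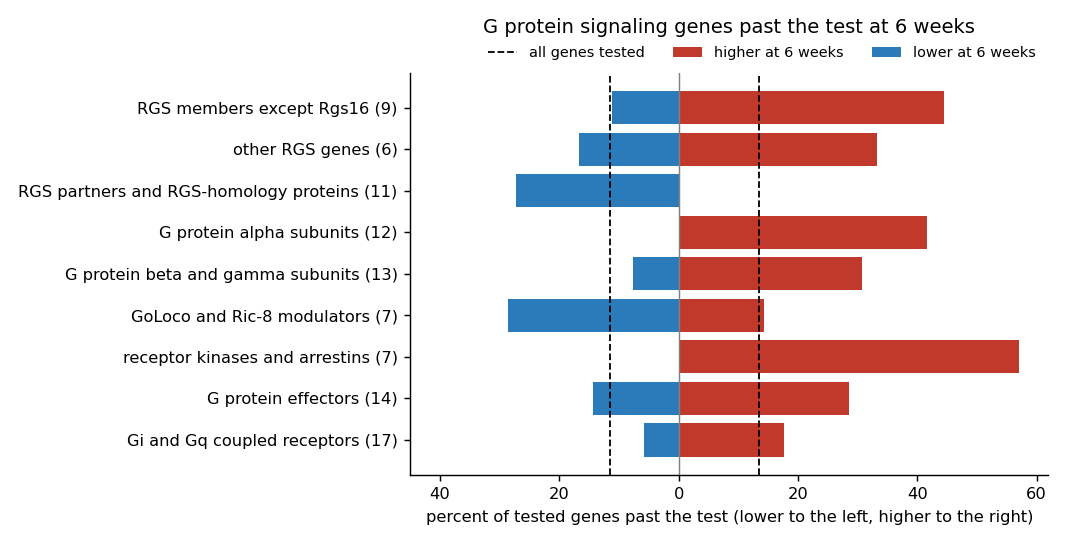
Percent of tested genes (their number in parentheses) that passed edgeR's quasi-likelihood test at 6 weeks against control, higher to the right (red) and lower to the left (blue), for the RGS members except Rgs16 and for each fixed list; dashed lines show all genes tested (13.5% higher, 11.5% lower). Alpha subunits (5 of 12) and receptor kinases and arrestins (4 of 7) had higher genes only, and RGS partners (3 of 11) lower genes only, on the TMM scale. Members and lists were chosen with earlier results of these data known. Among the other RGS genes, Rgs18 is drawn as higher although its call supports no change.

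Among alpha subunits, the substrates of RGS proteins, 5 of 12 were higher at 6 weeks and 0 were lower. Of all genes, 13.5% passed as higher and 11.5% as lower. Gnai2, a Gi subunit of most cell types, had control, 2 week and 6 week means of 143, 181 and 202 CPM, with log2 values of 0.34 (SE 0.0573, adjusted P = 0.00244, edgeR) and 0.50 (SE 0.0574, adjusted P = 9.78e-06), and its groups were separate from control both times. Gnai3 was higher at 6 weeks (log2 0.36, SE 0.0764, adjusted P = 0.00189, edgeR), as was Gna15, a Gq class subunit of blood cells (log2 0.96, SE 0.305, adjusted P = 0.0269). The call of Gna15 was lost without any one of 5 mice (controls 2, 4 and 6 and 6 week mice 1 and 5, adjusted P up to 0.0621).

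Of 13 beta and gamma subunits tested, 3 were higher at 2 weeks, and 4 were higher and 1 lower at 6 weeks. Among all genes, 3.09% were higher at 2 weeks, and 13.5% were higher and 11.5% lower at 6 weeks. Gng11 had control, 2 week and 6 week means of 17.5, 22.9 and 32.2 CPM, with log2 values of 0.39 (SE 0.0722, adjusted P = 0.00511, edgeR) and 0.88 (SE 0.0717, adjusted P = 2.03e-07), and separate groups at both times. Gngt2 was 2.01-fold higher at 6 weeks (log2 1.01, SE 0.185, adjusted P = 0.000605, edgeR), while its 2 week call (log2 0.70, adjusted P = 0.0386) was lost without any one of 8 mice (controls 1, 2, 3 and 4 and 2 week mice 1, 3, 4 and 6, adjusted P up to 0.0919). Gnb1 was higher at 2 weeks (log2 0.33, SE 0.0785, adjusted P = 0.0193, edgeR). It was also higher at 6 weeks (log2 0.43, SE 0.0785, adjusted P = 0.000543, edgeR), a value picked after it was seen. Gng7 was lower at 6 weeks (log2 -0.62, SE 0.187, adjusted P = 0.0198), a call lost without control 3 (adjusted P = 0.0502) and with library size alone (adjusted P = 0.150).

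The partners of R7 proteins and the proteins with an RGS-like domain had 0 of 11 genes past the test at 2 weeks (edgeR, 3 with an unadjusted P under 0.05, 2 by DESeq2 and 0 by limma voom). At 6 weeks 3 were lower (27.3%), where 25.0% of all genes passed, 11.5% as lower. Gnb5, the obligate partner of Rgs6, averaged 6.33 CPM in controls and 4.34 CPM at 6 weeks (log2 -0.53, SE 0.176, adjusted P = 0.0352, edgeR). Its call was lost without any one of 4 mice (controls 3 and 6 and 6 week mice 2 and 5, adjusted P up to 0.0952) and with library size alone (adjusted P = 0.263). The call of Gnb5 was also lost with limma voom (adjusted P = 0.0746). In TPM its log2 value was -0.11 and -0.13 with pseudocounts of 1 and 0.1 (adjusted P = 0.585 and 0.580, limma). The sorting nexins Snx13 (log2 -0.26, adjusted P = 0.00460) and Snx14 (log2 -0.25, adjusted P = 0.0241) were lower on the TMM scale and turned to 0.00091 and 0.0079 with library size alone, and Snx14 also lost its call without control 3 or 4 or 6 week mouse 6 (adjusted P up to 0.0620).

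Of the channel subunits that Gi signals open in cardiac cells, Kcnj3 averaged 53.5 CPM in controls and 31.0 CPM at 6 weeks with separate groups (log2 -0.79, SE 0.166, adjusted P = 0.00187, edgeR). Kcnj5 averaged 63.3 and 51.3 CPM (log2 -0.30, SE 0.0776, adjusted P = 0.00757), a value that was 0.10 in TPM on either pseudocount. With library size alone the value of Kcnj5 was -0.036 and did not pass (adjusted P = 0.747, edgeR). Both channel genes were picked after their values were seen, because Rgs6 and Gnb5 act on the channel. In TPM the difference of Kcnj3 kept its direction but did not pass (log2 -0.30, adjusted P = 0.113, limma). The effectors had 0 of 14 genes past the test at 2 weeks (edgeR, 5 with an unadjusted P under 0.05, 2 by DESeq2 and 1 by limma voom) and 6 at 6 weeks, 4 higher and 2 lower. Of all genes, 5.02% passed at 2 weeks and 25.0% at 6 weeks. The higher ones named by rule were Pik3r5 (log2 1.48, SE 0.221, adjusted P = 0.000106), Plcb2 (log2 0.88, SE 0.240, adjusted P = 0.0113) and Pik3cg (log2 0.82, SE 0.178, adjusted P = 0.00226), the phospholipase and the phosphoinositide 3-kinase subunits that beta and gamma subunits activate in blood cells.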

How the data were processed

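RNA-seq libraries of 18 mice, 6 per group by the labels, were analysed. The labels give the tissue as septum, where the study's methods speak of ventricles and of sham treatment. The authors aligned reads to GRCm38 with STAR, quantified transcripts with Salmon 1.0 (CASAVA 1.8 upstream, per the submitters' processing notes) and summed them to genes with tximport. The deposited estimated counts were not normalized between mice, and the deposited TPM values were made by the authors from the same quantification, per transcript length and within each mouse. The strand setting was not given in the sources used here, so reads of Rgs16, Rgs6 and Rgs12 and of antisense genes that share 236, 77 and 467 exonic bases with them cannot be told apart. A symbol was found for 29301 of 30072 gene identifiers.

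Counts were rounded, 15054 genes reached 0.23 CPM in 6 or more mice and were kept, and edgeR 4.0.16 in R 4.3.3 fitted 1 quasi-likelihood model of the 3 groups after TMM scaling. The F tests were two-sided, with Benjamini-Hochberg adjustment over all genes tested and a threshold of 0.05. Mice are separate animals. The script was tested on simulated data. The spread was estimated from the separate mice, so SE and P values cover differences between mice as well as counting error. Alternatives were DESeq2 1.42.0, limma 3.58.1 (voom, or trend on log2 TPM with pseudocounts of 1 and 0.1), other scalings and filters, a replicate block, a Y-linked covariate and leaving out each mouse.

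The members and lists were chosen with earlier results of these data known. Named genes were the 10 members, the 3 called genes of largest change per list and comparison, Rgs5, and the genes nearest in pattern to Rgs16 (5), Rgs2 (3) and Rgs4 (3). Kcnj3, Kcnj5, and the 6 week values of S1pr3 and Gnb1, were added after values were seen. Gene coordinates are from GENCODE M21.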

Additional observations from a re-analysis of the deposited data

Results flagged for a closer look

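Dixon's test at the 95% level was applied to the CPM of each of the 10 RGS genes in each of the 3 groups, 30 groups of 6 mice, of which chance alone marks about 1 in 20. It marked 4. Rgs1 stood at 1.94 CPM in control mouse 3, where the next control had 0.259 CPM. Rgs3 stood at 41.3 CPM in control mouse 4, the lowest of its group and below the next control at 56.5 CPM, and at 63.4 CPM in 2 week mouse 4, the highest of its group and above the next at 56.1 CPM. Rgs14 stood at 3.16 CPM in 6 week mouse 6, above the next mouse at 1.85 CPM. Control mouse 4 and 6 week mouse 6 also had the highest macrophage marker sums of their groups, whose part in these values was not tested.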

How the results depend on the processing

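The 5 RGS genes past the test at 6 weeks each kept their call on leaving out any one mouse (range 5 to 5), and 3 of them also exceeded an absolute log2 fold change of 1. At 2 weeks the 2 members became 4 with library size alone and 4 in TPM on either pseudocount, 1 under a replicate block, 0 with the fold threshold, and 0 to 2 without one mouse. Replicate numbers did not pair the mice: the deviations of same-numbered mice correlated at -0.083 to 0.106, and 3 of 18 mice were nearest to their own number. The list genes at 2 weeks, 5, became 19 with library size alone, 13 with DESeq2, 23 and 24 in TPM with pseudocounts of 1 and 0.1, 8 with the Y-linked covariate, 0 with the fold threshold and 4 to 9 without one mouse. The 33 at 6 weeks, Rgs18 included, became 50 and 50 in TPM, 5 with the fold threshold and 27 to 34 without one mouse. Signs turned as follows, in log2 and, where several follow, in the order library size alone, TPM + 1 and TPM + 0.1. Rgs3 gave 0.12, 0.26 and 0.27 at 2 weeks and 0.19, 0.37 and 0.39 at 6 weeks. Rgs2 at 6 weeks gave 0.14, 0.41 and 0.45, Rgs5 at 2 weeks 0.086, 0.20 and 0.20 (and from -0.15 to 0.0029 without one mouse, turning without 2 week mouse 5), Snx13 0.00091, 0.12 and 0.13, and Snx14 0.0079, 0.14 and 0.15. In TPM alone, Rgs6 at 2 weeks gave 0.064 and 0.061, Kcnj5 0.098 and 0.10, and Ric8b 0.090 and 0.095. Rgs1 at 2 weeks gave 0.018 with voom and from -0.75 to 0.69 without one mouse, turning without control 3. Rgs1 at 6 weeks gave 0.22 with library size alone, 0.47 with voom, 0.015 and 0.23 in TPM, 1.11, 0.063 and 0.17 without control 3, 6 week mouse 2 or 6 week mouse 4, and -0.29 at the lowest without one mouse. Library size alone moved the median of all genes by 0.15 at 2 weeks and 0.24 at 6 weeks. The cause of the other changes was not tested. Rgs1, Rgs14, Rgs9, Rgs17 and Rgs18 rest on few counts.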

Other observations

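Regulators that act on receptors rather than on G proteins also included higher genes. Of 7 receptor kinases and arrestins, 0 passed at 2 weeks (edgeR, 4 with an unadjusted P under 0.05, 2 by DESeq2 and 1 by limma voom) and 4 were higher at 6 weeks. Of all genes, 5.02% passed at 2 weeks and 13.5% passed as higher at 6 weeks. Arrb2, beta-arrestin 2, averaged 10.3 CPM in controls and 19.8 CPM at 6 weeks with separate groups (log2 0.93, SE 0.117, adjusted P = 1.90e-05, edgeR). Arrb1 (log2 0.40, adjusted P = 0.00201) and Grk6 (log2 0.35, adjusted P = 0.00449) were higher with overlapping groups.

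The 7 GoLoco and Ric-8 modulators, which hold alpha subunits in the inactive state or help them fold, had 0 genes past the test at 2 weeks (edgeR, 1 with an unadjusted P under 0.05, 0 by DESeq2 and 0 by limma voom). At 6 weeks Gpsm3, a modulator of blood cells, was higher (log2 0.75, SE 0.200, adjusted P = 0.00924, edgeR) with separate groups. Gpsm1 was lower (log2 -0.40, SE 0.0988, adjusted P = 0.00617), a call lost with library size alone (adjusted P = 0.237). Ric8b was lower (log2 -0.32, SE 0.0789, adjusted P = 0.00606) on the TMM scale, and its value turned to 0.090 in log2(TPM + 1).

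Of 17 receptors that signal through Gi and Gq, 1 was higher at 2 weeks, and 3 were higher and 1 lower at 6 weeks. These shares, 5.88% and 23.5%, were close to the 5.02% and 25.0% of all genes, so no excess is read from them. S1pr3, a sphingosine 1-phosphate receptor, averaged 31.9 CPM in controls and 41.2 at 2 weeks (log2 0.37, SE 0.0870, adjusted P = 0.0198, edgeR), and 41.3 at 6 weeks (log2 0.37, adjusted P = 0.00396), the last value picked after it was seen. The thrombin receptors F2rl3 (log2 0.88, SE 0.231, adjusted P = 0.00856) and F2r (log2 0.45, SE 0.121, adjusted P = 0.0104) were higher at 6 weeks. P2ry1, a receptor for ADP, was lower (log2 -0.66, SE 0.128, adjusted P = 0.000924), with groups separate from control. In TPM its difference kept its direction and did not pass (adjusted P = 0.110, limma).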
